A study of Mus musculus with 12 samples.

Results

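The BCL2 family of cell survival and cell death genes was followed through the first hours of liver regeneration in the mouse. The 10 members described here are Mcl1, Bcl2l1, Bcl2, Bcl2l11, Bid, Bmf, Bak1, Bad, Bcl2l13 and Bok, taken by their symbols from a deposited table of 54532 genes, in which each symbol matched 1 gene. The table covered 12 whole-liver RNA-seq libraries from poly(A) RNA of Wild-type C57/BL6J mice, 3 after a sham operation and 3 each at 3, 6 and 12 h after a 70% hepatectomy. The age and sex of the mice, the hour at which the sham livers were taken, and whether each library came from 1 mouse are not given in the sources used here, so p-values measure only the spread between these libraries. Replicate 3 of the 6 h group carries a time tag of 7 h and was kept with the title's group.

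Proteins of this family meet at the outer mitochondrial membrane. Pro-survival members such as MCL1 and BCL-XL hold the pore-forming effectors BAX and BAK in check or bind the BH3-only proteins. The BH3-only proteins sense damage, loss of growth factors or death receptor signals and free these effectors to release cytochrome c. Hepatocytes are known to depend on MCL1 and BCL-XL together, and in these cells the BH3-only protein BID links the death receptor Fas to the mitochondria. BH3-only genes are often controlled through the amount of their mRNA, while the MCL1 protein is short-lived and is also controlled through its breakdown, which these RNA data do not measure.

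The libraries held 15573405 to 17199639 counts each, and replicates of a group differed by more than counting noise. Sham replicate 1 stood apart from the others with 11.9% of its counts on mitochondrially encoded genes, against 5.52 to 8.49% in the other 11 libraries. It had the lowest Bcl2l1, Bak1, Bad and Bok of the 3 sham libraries and the highest Mcl1. The fit on the 10 libraries left when it and the library tagged 7 h are removed is called the 10-library fit. Member calls that change without sham replicate 1, or in the 10-library fit, are given with both values. In bulk liver, fewer cells of a type and less RNA per cell cannot be told apart. The 7 hepatocyte markers (albumin and other defining genes) summed to 35522 to 37735 FPKM over the sham libraries, 38874 to 47815 over the 3 h, 35135 to 40845 over the 6 h and 22522 to 24483 over the 12 h libraries. Of the 7, 2 were called higher at 3 h and at 6 h, and 3 lower at 12 h. In the 10-library fit 3 were higher and 1 lower at 6 h, and 1 was higher and 3 lower at 12 h.

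Levels are given as FPKM, fragments scaled by gene length and by a constant for each library, and can be compared between genes. That constant was not the library's total counts. It corresponded to 1.358e+07 counts in 6 h replicate 3, which held 15891394, and to 1.923e+07 in sham replicate 3, which held 16661784. FPKM levels, sums and overlaps between libraries carry this scaling. Over the 12 libraries the family spanned a wide range, with Mcl1 at a median of 29.0 FPKM, Bcl2l1 at 10.5, Bak1 at 4.45, Bad at 4.23, Bcl2l13 at 3.99, Bok at 3.02, Bid at 2.53, Bcl2l11 at 0.486, Bmf at 0.319 and Bcl2 at 0.126. Mcl1 was the family's most abundant mRNA in each of the 12 libraries, though in 3 h replicate 3 Bcl2l1 was almost equal (38.6 and 38.5 FPKM). The lowest Mcl1 library (23.5 FPKM) lay above every library of the other members except 3 h replicate 3 of Bcl2l1. From Bak1 to Bid the ranges over libraries overlapped, so the order of these 5 neighbours was not separated by their spread. Bcl2 was lowest, with 13 to 29 counts per library.

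Differences between groups are log2 ratios from the edgeR quasi-likelihood test on counts, with a standard error (SE), and a gene is said to rise or fall where its Benjamini-Hochberg adjusted p was under 0.05. Genes entered that test with 1 FPKM or more in at least 3 of the 12 libraries, which kept 11451 genes and 8 of the 10 members. Bmf passed this filter only through its 3 sham libraries, so its fall was a condition of its being tested. Bcl2 and Bcl2l11 did not pass, and their values come from the same test on 14523 genes kept by edgeR's own count filter.

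At 3 h after resection, 1 tested member rose and 3 fell against sham, where 9.81% of all tested genes rose and 11.7% fell. The same counts, 1 higher and 3 lower, were found at 6 h, against 16.8% of all genes higher and 18.2% lower. By 12 h no member was higher and 2 were lower, against 13.5% and 15.3% of all genes. Bmf is among those lower at each time. The 0 members higher at 12 h by edgeR stayed 0 at an unadjusted p under 0.05, in DESeq2 and in limma. Under the count filter, which kept all 10 members, 1 was higher and 3 lower at 3 h (9.61% and 9.54% of all genes), 1 higher and 4 lower at 6 h (15.9% and 15.8%), and 0 higher and 2 lower at 12 h (13.0% and 12.7%). The median log2 difference of the 8 tested members was -0.13 at 3 h, -0.17 at 6 h and -0.15 at 12 h, beside -0.02, -0.01 and -0.02 for all tested genes. With so few members these counts describe the family and do not set it apart from other genes. Scaling by library totals shifted the median of all genes to -0.20 at 3 h and -0.32 at 6 h, and split all calls into 782 higher and 2346 lower at 3 h and 1048 and 3706 at 6 h, against 1123 and 1345, and 1924 and 2080, as scaled here. Under that scaling 1 member was still higher and 3 lower at 3 h, and 1 higher and 4 lower at 6 h.

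**Figure D1:**
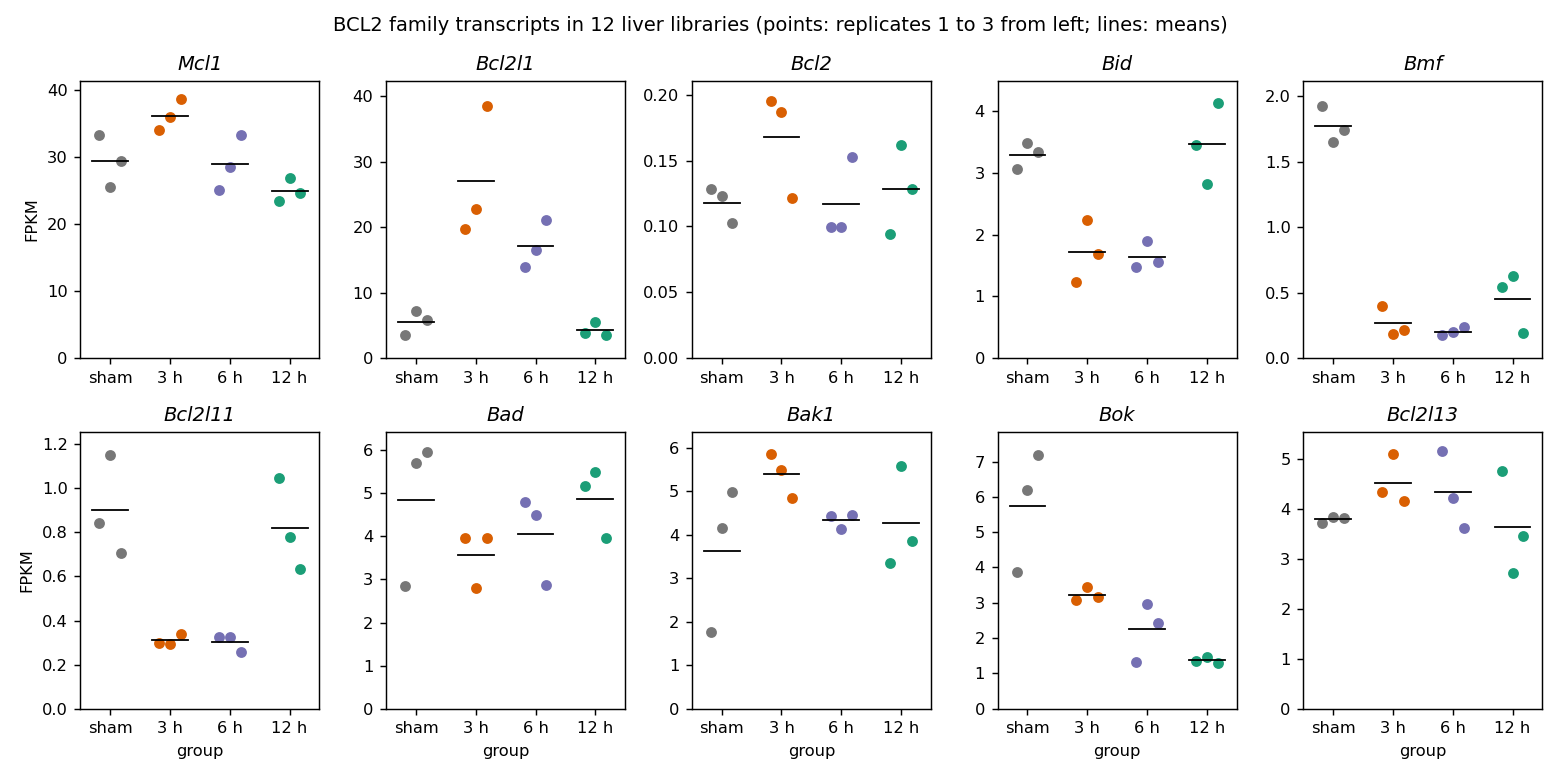
FPKM of each of the 10 members in every library, by group, on its own axis; points are libraries and horizontal lines are group means. Bcl2l1 is high at 3 and 6 h, Bmf, Bcl2l11 and Bid are low at those times, and Bok is lowest at 12 h.

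Among the pro-survival genes the change was in Bcl2l1, which encodes BCL-XL. Bcl2l1 measured 3.59, 7.20 and 5.85 FPKM in the 3 sham livers (5.55 ± 1.82, SD, n = 3) and 19.7, 22.7 and 38.5 FPKM at 3 h (27.0 ± 10.1). At 6 h it measured 13.9, 16.5 and 21.0 FPKM (17.2 ± 3.61), and at 12 h 3.88, 5.50 and 3.49 FPKM (4.29 ± 1.07). Every library at 3 and 6 h lay above every sham and every 12 h library, and the sham and 12 h libraries overlapped. The rise was 4.70-fold at 3 h (log2 difference 2.23 ± 0.30 SE, 95% interval 1.59 to 2.88, edgeR adjusted p = 0.000185) and 3.03-fold at 6 h (1.60 ± 0.29, adjusted p = 0.000927). Ranked by log2 difference, Bcl2l1 was number 226 from the top of the 11451 genes at 3 h and number 471 at 6 h. At 12 h the difference from sham was -0.38 ± 0.29 (edgeR adjusted p = 0.356). Both rises held with each library left out in turn, at 1.90 to 2.47 at 3 h and 1.36 to 1.83 at 6 h.

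The gene lies on the minus strand of chromosome 2 (ENSMUSG00000007659, GRCm38, 152780668 to 152831728). The RefSeq promoter nearest to its deposited 5′ end is shown because this member rose, with those of the BH3-only genes Bmf and Bcl2l11, which fell at the same times. Each line gives the 250 bases before the RefSeq start site (GRCm38.p6), read 5′ to 3′ on the gene's strand, at chr2:152831729-152831978 (minus) for Bcl2l1, chr2:118549687-118549936 (minus) for Bmf and chr2:128125788-128126037 (plus) for Bcl2l11. The last base shown for Bmf is the first base of the deposited gene model. Capitals mark matches to any of 8 motifs.
Bcl2l1: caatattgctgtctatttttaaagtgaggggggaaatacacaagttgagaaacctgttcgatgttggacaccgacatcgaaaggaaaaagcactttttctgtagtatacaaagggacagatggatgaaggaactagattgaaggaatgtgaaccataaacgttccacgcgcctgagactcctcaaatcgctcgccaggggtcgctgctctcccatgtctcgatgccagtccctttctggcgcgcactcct
Bmf: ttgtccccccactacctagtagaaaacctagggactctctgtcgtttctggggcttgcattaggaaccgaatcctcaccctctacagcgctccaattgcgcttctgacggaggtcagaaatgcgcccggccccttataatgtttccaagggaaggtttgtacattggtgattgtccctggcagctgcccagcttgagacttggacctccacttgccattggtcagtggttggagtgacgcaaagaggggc
Bcl2l11: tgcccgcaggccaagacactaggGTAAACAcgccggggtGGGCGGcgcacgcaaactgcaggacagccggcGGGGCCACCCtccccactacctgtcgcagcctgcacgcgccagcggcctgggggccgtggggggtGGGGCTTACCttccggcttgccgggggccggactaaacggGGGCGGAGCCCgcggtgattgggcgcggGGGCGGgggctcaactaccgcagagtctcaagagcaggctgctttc
The motifs were searched on both strands, and their share of 32807 promoter windows of the same length is given with each: STAT (TTCNNNGAA, 7.02%), FOXO (TGTTTAC, 3.16%), AP-1 (TGANTCA, 6.75%), NF-kB (GGGNNNNNCC, 45.8%), CRE (TGACGTCA, 1.55%), E-box (CACGTG, 6.02%), C/EBP (TTGCNNCAA, 1.74%) and SP1 (GGGCGG, 32.7%). The Bcl2l1 and Bmf windows shown held none of these letters, and the Bcl2l11 window shown held 1 FOXO match, from 227 to 221 bases before the start, with 4 NF-kB and 3 SP1 matches, of which some overlap. The windows had a GC content of 47.6% in Bcl2l1, 54% in Bmf and 72% in Bcl2l11. RefSeq has further start sites inside these genes, with 2 more windows for Bcl2l1, 2 for Bmf and 1 for Bcl2l11, not shown. Of these, 1 Bcl2l1 window held 2 NF-kB matches, 1 Bmf window held 1, and the Bcl2l11 window held 2 NF-kB and 2 SP1 matches. A match is a description of letters and not a site.

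Mcl1, whose short-lived protein restrains BAK, was not called against sham at any time. It measured 33.2, 25.5 and 29.5 FPKM in sham livers (29.4 ± 3.87), 34.0, 36.0 and 38.6 at 3 h (36.2 ± 2.31), 25.0, 28.5 and 33.3 at 6 h (29.0 ± 4.17) and 23.5, 26.9 and 24.6 at 12 h (25.0 ± 1.76). The 3 h libraries lay above all sham libraries, the 6 h libraries overlapped them, and the 12 h libraries overlapped them at the lower end. The log2 differences from sham were 0.26 ± 0.14 at 3 h, -0.05 at 6 h (95% interval -0.36 to 0.26) and -0.24 at 12 h, with edgeR adjusted p of 0.223, 0.821 and 0.220. In the 10-library fit the 3 h difference was 0.35 with an edgeR adjusted p of 0.0453. Scaled by library totals or as TPM, both of which shift all genes down at 6 h, Mcl1 was called lower at 6 h, by edgeR on totals at -0.36 (adjusted p = 0.0356) and by limma on TPM at -0.38 (adjusted p = 0.0268).

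Bcl2, the founding member and best known in lymphocytes, ranged from 0.0945 to 0.195 FPKM over the 12 libraries. Its log2 differences from sham were 0.52 ± 0.37 at 3 h, 0.01 at 6 h and 0.13 at 12 h, and no edgeR adjusted p was under 0.359. At these counts a change of the size seen in Bcl2l1 at 3 h lies outside the 95% interval at 3 h (-0.27 to 1.31).

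The summed level of the 3 pro-survival members was 37.0, 32.8 and 35.4 FPKM in the sham livers and 53.9, 58.9 and 77.3 FPKM at 3 h. It was 39.0, 45.1 and 54.5 FPKM at 6 h and 27.4, 32.6 and 28.2 FPKM at 12 h. In the sham livers Bcl2l1 stood at 0.108, 0.282 and 0.199 of the Mcl1 level. That ratio was 0.579, 0.631 and 0.997 at 3 h, 0.555, 0.580 and 0.631 at 6 h, and 0.165, 0.205 and 0.142 at 12 h. In 3 h replicate 3 the Bcl2l1 and Mcl1 mRNAs were almost equal in level.

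Of the 4 BH3-only members, Bmf, Bcl2l11 and Bid fell at 3 and 6 h and Bad was not called. Bmf, whose protein is held at the cytoskeleton and released on loss of attachment or other stress, measured 1.93, 1.65 and 1.74 FPKM in sham livers (1.77 ± 0.142) and 0.399, 0.188 and 0.212 at 3 h (0.266 ± 0.116). It measured 0.174, 0.198 and 0.238 FPKM at 6 h (0.203 ± 0.0326) and 0.546, 0.625 and 0.192 at 12 h (0.454 ± 0.231). All 9 libraries from resected livers lay under every sham library. Bmf fell 6.75-fold at 3 h (-2.76 ± 0.40, edgeR adjusted p = 0.000330), 8.84-fold at 6 h (-3.14 ± 0.41, adjusted p = 7.046e-05) and 3.91-fold at 12 h (-1.97 ± 0.37, adjusted p = 0.00187). Since Bmf passed the FPKM filter only through its sham libraries, its values under the count filter are given beside these: -2.71 at 3 h, -3.09 at 6 h and -1.95 at 12 h (edgeR adjusted p = 0.000288, 5.913e-05 and 0.00169). All of these calls, under the FPKM filter, held with each library left out. Bmf had 13 to 176 counts per library, and its 95% interval at 6 h was -4.04 to -2.25. Bmf lies on the minus strand of chromosome 2 (ENSMUSG00000040093, 118528757 to 118549687).

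Bcl2l11 encodes BIM, a BH3-only protein that binds all pro-survival members. It measured 0.843, 1.15 and 0.706 FPKM in sham livers (0.900 ± 0.228), 0.300, 0.295 and 0.338 at 3 h (0.311 ± 0.0236), 0.324, 0.323 and 0.257 at 6 h (0.301 ± 0.0385) and 1.04, 0.778 and 0.635 at 12 h (0.819 ± 0.208). The 6 libraries of 3 and 6 h lay under all sham and all 12 h libraries, and the sham and 12 h libraries overlapped. Bcl2l11 fell by 1.52 ± 0.26 on the log2 scale at 3 h (edgeR adjusted p = 0.00106) and by 1.55 ± 0.26 at 6 h (adjusted p = 0.000467). At 12 h the difference from sham was -0.12 (adjusted p = 0.752). Bcl2l11 had 28 to 172 counts per library and lies on the plus strand of chromosome 2 (ENSMUSG00000027381, 128126038 to 128162547).

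Bid, whose protein is cut by caspase 8 and then moves to mitochondria, measured 3.07, 3.48 and 3.34 FPKM in sham livers (3.30 ± 0.212). It measured 1.23, 2.25 and 1.69 FPKM at 3 h (1.72 ± 0.507), 1.48, 1.90 and 1.56 at 6 h (1.65 ± 0.223) and 3.46, 2.82 and 4.13 at 12 h (3.47 ± 0.655). As for Bcl2l11, the 3 and 6 h libraries lay under all sham and 12 h libraries, which overlapped each other. Bid fell by 0.98 ± 0.22 on the log2 scale at 3 h (edgeR adjusted p = 0.00714) and by 1.03 ± 0.23 at 6 h (adjusted p = 0.00313), and the 12 h difference was 0.06 (adjusted p = 0.860). Bid lies on the minus strand of chromosome 6 (ENSMUSG00000004446, 120891930 to 120916853) and shares 913 bases with the end of Bcl2l13 on the plus strand. Whether the counting used strand is not stated, so reads from those bases may not be separable.

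Bad, a BH3-only protein switched off by growth factor kinases through phosphorylation, spanned 2.84 to 5.96 FPKM over the sham libraries. The 3 h libraries spanned 2.79 to 3.96, the 6 h libraries 2.86 to 4.79 and the 12 h libraries 3.96 to 5.48 FPKM, so all groups overlapped the sham group. The log2 differences from sham were -0.48 at 3 h, -0.29 at 6 h and 0.00 at 12 h, with edgeR adjusted p of 0.267, 0.479 and 0.999. Without sham replicate 1 the 3 h difference was -0.75 (edgeR adjusted p = 0.0347). Bad shares 590 bases with Gpr137 on the opposite strand, which was itself at 2.47 to 7.87 FPKM.

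The summed level of the 4 BH3-only members (Bid, Bad, Bcl2l11 and Bmf) was 8.68, 12.0 and 11.7 FPKM in the sham livers and 5.90, 5.52 and 6.19 FPKM at 3 h. It was 6.78, 6.92 and 4.91 FPKM at 6 h and 10.2, 9.71 and 8.92 FPKM at 12 h. The ratio of the pro-survival sum to this BH3-only sum was 4.26, 2.74 and 3.02 in sham livers, 9.14, 10.7 and 12.5 at 3 h, 5.76, 6.53 and 11.1 at 6 h, and 2.68, 3.36 and 3.16 at 12 h. The 3 and 6 h libraries lay above all sham and 12 h libraries in this ratio of mRNA levels. The ratio is a description built from members already given, with no test of its own.

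**Figure D2:**
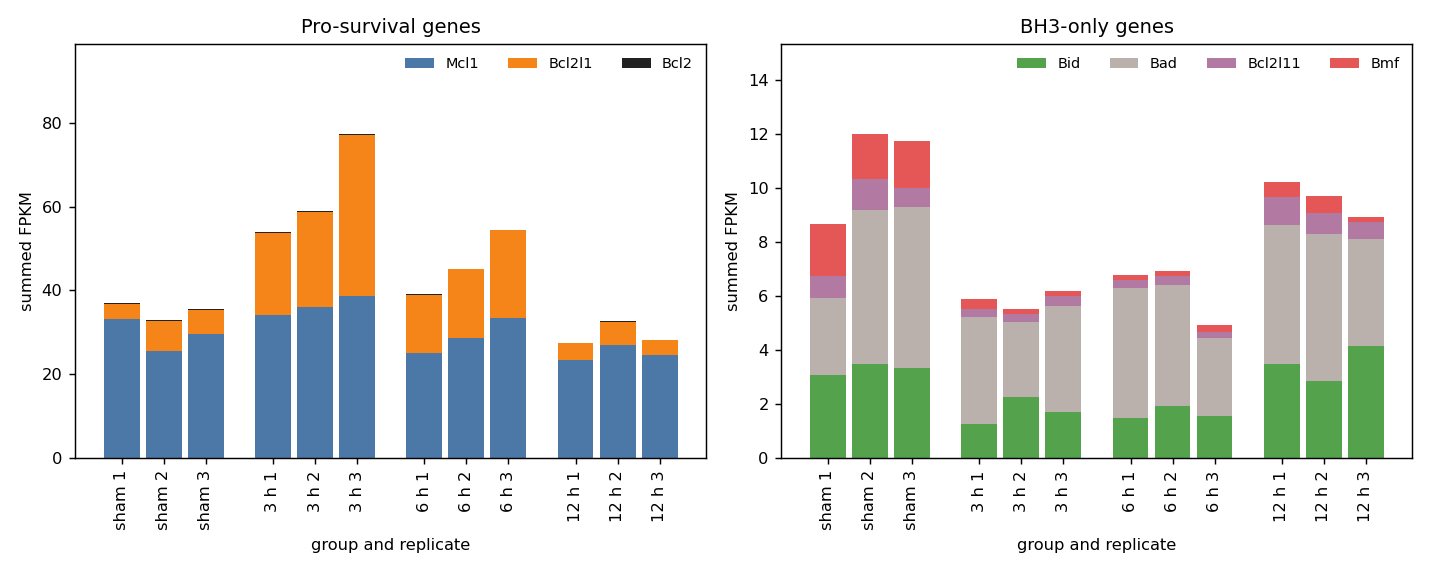
Stacked FPKM of the 3 pro-survival members (left) and the 4 BH3-only members (right) in each of the 12 libraries, by group and replicate. The Bcl2l1 part is large at 3 and 6 h, when the Bid, Bcl2l11 and Bmf parts are small, and the pro-survival sum is highest, at 77.3 FPKM, in 3 h replicate 3.

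Of the effector genes, Bok moved and Bak1 was not called. Bok, an effector kept low by protein breakdown, measured 3.87, 6.19 and 7.18 FPKM in sham livers (5.75 ± 1.70), 3.08, 3.44 and 3.18 at 3 h (3.23 ± 0.183), 1.34, 2.96 and 2.44 at 6 h (2.25 ± 0.831) and 1.35, 1.46 and 1.31 at 12 h (1.37 ± 0.0769). All resected libraries lay under all sham libraries. Bok fell by 1.38 ± 0.29 on the log2 scale at 6 h (edgeR adjusted p = 0.00229) and by 2.08 ± 0.30 at 12 h, a 4.21-fold difference (adjusted p = 0.000280). It was number 164 from the bottom of the 11451 genes at 12 h. The 3 h difference of -0.87 ± 0.28 (edgeR adjusted p = 0.0418) was near the threshold: the call was lost without any 1 library of the 2 groups other than sham replicate 1, where the difference was as small as -0.68, and under the count filter at -0.82 (adjusted p = 0.0518). Without sham replicate 1 it was -1.09. Bok lies on the plus strand of chromosome 1 (ENSMUSG00000026278, 93685660 to 93695764).

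Bak1 encodes the effector BAK of the mitochondrial membrane. Its sham libraries spanned 1.76 to 4.99 FPKM, the 3 h libraries 4.86 to 5.87, the 6 h libraries 4.13 to 4.47 and the 12 h libraries 3.35 to 5.60. Only sham replicate 1, at 1.76 FPKM, lay far under the rest, and every group overlapped the sham group. The log2 differences from sham were 0.53 at 3 h, 0.22 at 6 h and 0.22 at 12 h, with edgeR adjusted p of 0.244, 0.616 and 0.634. In the 10-library fit they were 0.20, -0.13 and -0.11. Bak1 lies within Ggnbp1 on the opposite strand over its whole length, and Ggnbp1 was at 0.403 to 2.48 FPKM.

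Bcl2l13 encodes a family member of the mitochondrial outer membrane that is known as a mitophagy receptor. It measured 3.72, 3.83 and 3.81 FPKM in sham livers and 4.33, 5.10 and 4.14 at 3 h, where the groups did not overlap. Its 6 h libraries spanned 3.62 to 5.15 FPKM and its 12 h libraries 2.72 to 4.76, both overlapping sham. The log2 differences were 0.22, 0.17 and -0.06, with edgeR adjusted p of 0.463, 0.541 and 0.834.

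**Figure D3:**
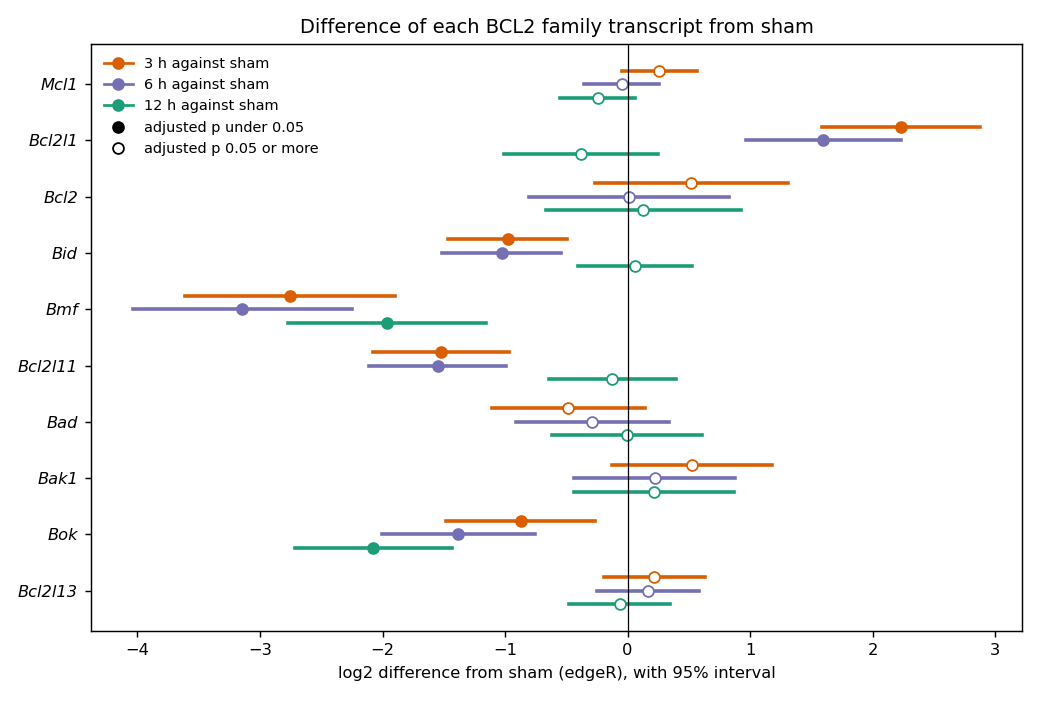
Log2 difference from sham of each member at 3, 6 and 12 h, with 95% intervals from the edgeR fit; filled points have an adjusted p under 0.05. Bcl2l1 lies at 2.23 and 1.60 at 3 and 6 h, and Bmf lies at -2.76, -3.14 and -1.97, with intervals that exclude 0.

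Direct comparisons between the times tested the changes after 3 h. Between 3 and 6 h no member was called, where 4.45% of all genes rose and 4.18% fell. DESeq2 and limma on log2(FPKM + 1) also called 0. At an unadjusted p under 0.05 edgeR gave 2 lower members, Mcl1 (-0.31) and Bcl2l1 (-0.63). At the same unadjusted threshold DESeq2 gave 2 lower and limma on log2(FPKM + 1) gave 1. With no filter on low genes, edgeR called Bcl2l1 lower (-0.67, adjusted p = 0.00870). Scaled by library totals, Mcl1 was called lower, as it was in the 10-library fit (-0.42, edgeR adjusted p = 0.0371).

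From 6 to 12 h, 1 tested member rose and 1 fell, against 12.1% and 12.6% of all genes. Bcl2l1 fell by 1.98 ± 0.30 on the log2 scale (edgeR adjusted p = 0.000431), and Bid rose by 1.09 ± 0.23 (adjusted p = 0.00364). Under the count filter Bcl2l11 rose by 1.43 ± 0.26 (edgeR adjusted p = 0.00156). Bmf was at 1.18 ± 0.42 (edgeR adjusted p = 0.0580), and DESeq2 called it higher, as did edgeR on library totals (1.49) and with no filter (1.14). Bok was at -0.69 (edgeR adjusted p = 0.113), and at -0.96 without 6 h replicate 1 (adjusted p = 0.0318).

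From 3 to 12 h, 1 tested member rose and 3 fell, against 17.8% and 18.2% of all genes. Bcl2l1 was 6.13-fold lower at 12 h (-2.61 ± 0.30, edgeR adjusted p = 5.455e-05). Bok fell 2.30-fold (edgeR adjusted p = 0.00772), and Mcl1 fell by 0.50 ± 0.14 on the log2 scale (adjusted p = 0.0150). The Mcl1 call was lost without 3 h replicate 3 (-0.47), without 12 h replicate 1 (-0.46) and without 12 h replicate 3 (-0.49), and was not made on library totals (-0.34) or TPM (-0.28). Bid rose by 1.04 ± 0.22 (edgeR adjusted p = 0.00345), and Bcl2l11 by 1.40 ± 0.26 under the count filter (adjusted p = 0.00132). Bmf was at 0.79 (edgeR adjusted p = 0.145), so its return toward sham was not called. Without 12 h replicate 3, which at 0.192 FPKM lay under the other 12 h libraries, Bmf was called higher at 12 h than at 3 h (1.16, edgeR adjusted p = 0.0240) and than at 6 h (1.54, adjusted p = 0.00858). Bad was at 0.48 from 3 to 12 h (edgeR adjusted p = 0.209), and at the same size with an adjusted p of 0.0436 in the 10-library fit. Bcl2l13 was called lower at 12 h than at 3 h without 12 h replicate 1 (-0.53, edgeR adjusted p = 0.0465). Comparisons that share a group also share that group's libraries, so their values are not independent of each other.

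Over the 12 libraries Bcl2l1 ran opposite to Bid (r = -0.85) and to Bcl2l11 (r = -0.83) on the log2(FPKM + 1) scale. The 3 tested genes with the highest correlation to Bcl2l1 were Cldn14 (r = 0.98), Grb2 (0.97) and Hnf4a (0.97). For Bmf they were Fbxl20, Mug-ps1 and Pde9a (each 0.97), for Bcl2l11 Nipal3 (0.97), Fam89a (0.97) and Klhdc7a (0.96), and for Bid Epb41l4b (0.94), Foxa1 (0.93) and Bcorl1 (0.93). For Bok they were Abtb1 (0.96), Maf1 (0.94) and Eif4ebp2 (0.94), and for Mcl1 Gm14018 (0.94), Rhobtb1 (0.92) and Adgrf5 (0.92). These 12 points share 4 groups and their libraries, so the correlations mostly restate which groups are high.

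The rest of the family and its pathway was read from lists of related genes. The counts of each list stand beside the shares of all genes called against sham, which were 9.81% higher and 11.7% lower at 3 h, 16.8% and 18.2% at 6 h, and 13.5% and 15.3% at 12 h. The 10-library fit called more of the 11451 genes, most of all at 12 h, with 2723 higher and 2771 lower against 1547 and 1751 here. At 3 h it called 1367 higher and 1491 lower, and at 6 h 2187 and 2168. List counts from that fit are to be read beside these. Of 7 other pro-survival genes, 2 were tested, Bcl2l2 (BCL-W) and Bcl2l12, and neither was called against sham at any time by edgeR, DESeq2 or limma on log2(FPKM + 1). Bcl2l2 was at -0.43 against sham at 3 h (edgeR adjusted p = 0.118), the 1 difference of the list from sham with an unadjusted p under 0.05 in edgeR, and it was higher at 12 h than at 3 h (0.67, edgeR adjusted p = 0.0127). On library totals 1 of the 2 was called lower at 3 h and both at 6 h. The 10-library fit called 1 of the 2 lower at 3 h. Bcl2l10 and Bcl2a1c were listed at 0 in all 12 libraries.

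Of 12 other BH3-only and effector genes, 10 were in the table and 6 were tested, and 2 fell at 3 h and 1 each at 6 and 12 h, with 0 called higher by edgeR or DESeq2 and 0, 1 and 1 higher at an unadjusted p under 0.05. On library totals 3 fell at 3 h and 3 at 6 h. Bbc3, which encodes the BH3-only protein PUMA, fell from a mean of 4.60 FPKM in sham livers to 0.688, 0.623 and 0.980 FPKM at the 3 times (log2 differences -2.77, -2.90 and -2.24, edgeR adjusted p = 0.000279, 9.978e-05 and 0.000800). It thus fell at the same times as Bmf. With means under 1 FPKM at the 3 later times, Bbc3 entered the test mainly through the sham libraries, where it was high. Its fall was therefore tied to its being tested, as for Bmf. All 3 calls held with each library left out and under the count filter. Bik, another BH3-only gene, fell by 1.58 at 3 h (edgeR adjusted p = 0.0340), a call kept in 1 of 6 fits with a library left out, the one without sham replicate 1. Bax, the effector that pairs with Bak1, was not called and measured 3.47 FPKM in sham replicate 1 against 9.55 and 9.37 in the other sham libraries. At 12 h, 2 genes of this list were higher and 2 lower in the 10-library fit. The list's median log2 difference was -0.09, -0.07 and -0.29 at the 3 times, beside -0.02, -0.01 and -0.02 for all genes.

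Genes that act on MCL1 and BH3-only proteins after translation, and partners at mitochondria, changed in both directions. Of 11 tested turnover genes, 3 rose and 1 fell at 3 h, 2 rose and 1 fell at 6 h, and 1 rose at 12 h. Ier3, an immediate early gene whose protein is known to bind MCL1, rose by 2.45, 3.45 and 2.04 on the log2 scale from 0.306 FPKM in sham livers (edgeR adjusted p = 0.00755, 0.000336 and 0.0171), the last a call lost without sham replicate 3 or without 12 h replicate 1 or 2. Ier3 passed the FPKM filter only through resected livers, where it was high, so its rise was tied to its being tested. The count filter gave the same 3 calls, and limma on log2(FPKM + 1) did not make the 12 h call. Btrc, a subunit of a ubiquitin ligase, fell by 0.89 at 3 h and 0.81 at 6 h. Of 20 tested mitochondrial partners, 1 rose and 1 fell at 3 h, 2 rose and 3 fell at 6 h, and 3 rose and 6 fell at 12 h. Bag3, a co-chaperone that appears in both lists, rose by 1.30 and 1.39 at 3 and 6 h. Dynll2, the dynein light chain that binds BMF, fell by 1.57 at 6 h and 1.37 at 12 h, from 58.2 FPKM in sham livers to 22.7 FPKM at 12 h. Tmbim6, a membrane protein known as BAX inhibitor 1, fell by 1.08 at 12 h. The 10-library fit gave 1 partner higher and 2 lower at 3 h, 4 and 5 at 6 h, and 8 and 6 at 12 h. For the turnover list it gave 4 higher and 1 lower at 3 h, and 3 and 1 at 12 h.

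Downstream of the mitochondria, Casp9, the caspase that the apoptosome activates, fell by 0.87, 1.34 and 0.56 at 3, 6 and 12 h (edgeR adjusted p = 0.00102, 2.067e-05 and 0.0115), the last a call lost without 12 h replicate 3. Cycs, which encodes cytochrome c, rose by 0.80 at 6 h, not called as TPM, and by 1.17 at 12 h. Of the 6 tested apoptosome genes, 1 rose and 1 fell at 3 h and at 6 h, and 2 rose and 2 fell at 12 h. In the 10-library fit these counts were 0 and 1, 1 and 3, and 2 and 3. Of 11 tested caspases and substrates, 1 rose and 3 fell at 3 h, 1 rose and 4 fell at 6 h, and 2 rose and 1 fell at 12 h. In the 10-library fit 1 rose and 2 fell at 3 h, 1 and 3 at 6 h, and 3 and 1 at 12 h. Casp8, which acts below death receptors and cuts BID, rose by 1.10, 1.39 and 0.72, from 8.52 FPKM in sham livers to 18.8, 22.7 and 14.1, while Bid was low at 3 and 6 h. Casp6, another caspase of this list, fell by 0.75 at 6 h and 1.01 at 12 h.

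Of 9 tested death receptor and adaptor genes, 5 rose at 3 h, 3 at 6 h and 3 at 12 h, where 9.81%, 16.8% and 13.5% of all genes rose. The list's median log2 difference was 0.61, 0.33 and 0.12, beside -0.02, -0.01 and -0.02 for all genes. By edgeR 0 were lower at an adjusted or an unadjusted p under 0.05, and by DESeq2 0 were called lower. On library totals 4 were higher at 3 h, and 2 were higher and 2 lower at 6 h. Tnfrsf12a (the TWEAK receptor) rose by 2.65, 2.57 and 1.72, and Tnfrsf1a (a TNF receptor) by 1.79, 1.72 and 0.59, the last lost without 12 h replicate 3. Fas rose by 0.88 and 0.83 at 3 and 6 h, the latter not called on library totals or TPM. The 10-library fit called 1 gene of this list lower at 3 h, 1 at 6 h and 3 at 12 h. Of 5 tested inhibitors of apoptosis, 1 was lower at 3 h and at 6 h, Birc3, and 0 were called at 12 h by edgeR, DESeq2 or limma, or at an unadjusted p under 0.05. On library totals 3 were lower at 3 h and at 6 h. Birc3 lost the 3 h call without sham replicate 1 or 2 or 3 h replicate 1 or 3, the 6 h call without 6 h replicate 1 or 3, and both in the 10-library fit, where 1 inhibitor was higher at 6 h and 3 were higher at 12 h.

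Of 19 tested transcription factors known to act on BCL2 family genes, 5 rose and 2 fell at 3 h, 5 rose and 3 fell at 6 h, and 4 rose and 7 fell at 12 h. Foxo3, a known activator of Bcl2l11, Bbc3 and Bmf, fell from 7.92 FPKM in sham livers to 2.19 and 2.03 at 3 and 6 h (edgeR adjusted p = 9.581e-06 and 2.998e-06, with a log2 difference of -1.90 at 3 h). Stat3, a known activator of Bcl2l1 and Mcl1, rose from 10.2 FPKM to 29.9 and 33.0 (1.52 and 1.67, edgeR adjusted p = 2.987e-06 and 5.389e-07). Myc rose from 1.08 FPKM in sham livers to 4.48, 2.61 and 3.44 at 3, 6 and 12 h. The 6 h call (1.24) was lost in 3 of 6 fits with a library left out, those without sham replicate 1 and without 6 h replicates 1 and 2. It was also lost on library totals (0.91), as TPM (0.81) and with only the 2 groups compared (1.23). In the 10-library fit the 6 h difference was 0.96 (edgeR adjusted p = 0.0505). Egr1 rose by 1.76 at 6 h and fell by 2.06 at 12 h, each call kept in 3 of 6 fits with a library left out. Its 12 h call was also lost in the 10-library fit (-1.12). Cebpb rose by 1.56 at 3 h, a call kept in 2 of 6 fits with a library left out. At 12 h Stat5b fell by 1.71 and E2f1 rose by 1.87. E2f1 had a mean of 0.587 FPKM in sham livers and 2.18 at 12 h. It thus passed the FPKM filter mainly through resected livers, and its call was also made under the count filter. All values of the factors are mRNA levels, and their activity was not measured. The 10-library fit had 6 factors higher and 2 lower at 3 h, 6 and 3 at 6 h, and 5 and 10 at 12 h.

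**Figure D4:**
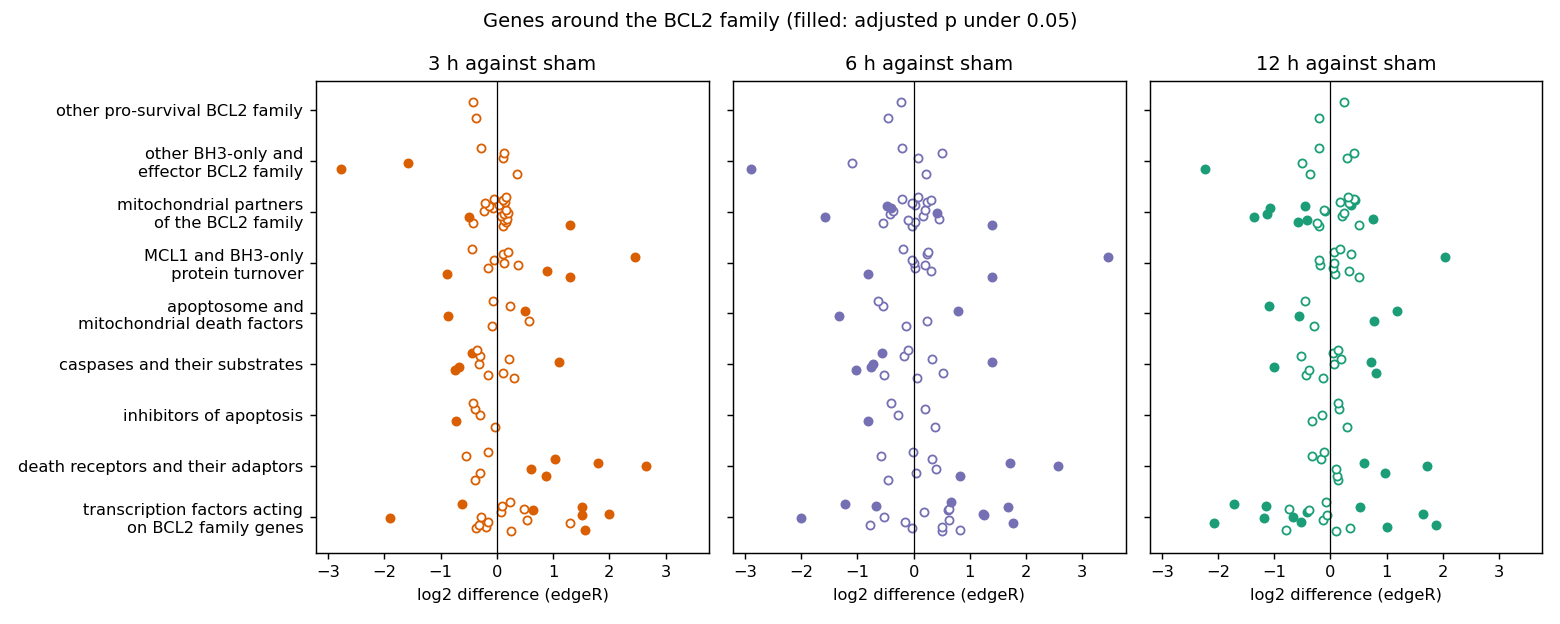
Log2 difference from sham (edgeR, horizontal axis) of each tested gene in 9 lists of related genes at 3, 6 and 12 h; filled points have an adjusted p under 0.05. Filled points of the death receptor list lie above 0 (5, 3 and 3 of 9 genes), and those of the other BH3-only and effector list below 0 (2, 1 and 1 of 6).

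Marker sums of other liver cell types also differed between groups, but not all in the same way. Macrophage, endothelial and red blood cell sums overlapped the sham range at 6 h. The B cell sums and the T and NK cell sums lay under it at 6 and 12 h. The 18 neutrophil markers spanned 3.95 to 7.14 FPKM in sum over the sham libraries. Over those of 3, 6 and 12 h the sums were 204 to 443, 633 to 1314 and 490 to 732 FPKM. Nearly all of the sum in these resected livers was Lcn2, which hepatocytes also make in inflammation. Without Lcn2 the sums were 3.52 to 6.32, 17.2 to 23.1, 13.7 to 24.2 and 9.21 to 11.6 FPKM, and 11 of the 18 markers were under 1 FPKM in all 12 libraries. The 14 macrophage markers spanned 112 to 151, 151 to 184, 105 to 127 and 74.9 to 101 FPKM in the same order. The 12 endothelial markers summed to 46.3 to 56.1, 66.2 to 87.8, 49.9 to 59.4 and 37.4 to 46.5 FPKM in the same order, the 12 stellate markers to 27.5 to 35.0, 31.8 to 55.8, 34.6 to 37.7 and 28.5 to 34.2, and the 6 B cell markers to 5.31 to 8.23, 3.07 to 8.57, 1.87 to 2.33 and 1.46 to 2.68. The 6 cholangiocyte markers summed to 18.5 to 21.2 FPKM over the sham libraries and 28.4 to 38.9, 30.3 to 38.3 and 22.6 to 30.4 FPKM over those of 3, 6 and 12 h, above every sham library at all 3 times. The 6 red blood cell markers summed to 93.0 to 119, 150 to 176, 87.9 to 116 and 47.9 to 69.2 FPKM in the same order. Of 5 tested, 2 were called higher at 3 h (3 in the 10-library fit) and 4 lower at 12 h. The 10 T and NK cell markers summed to 2.07 to 2.79, 1.71 to 2.62, 1.16 to 1.73 and 0.258 to 1.45 FPKM in the same order. All 10 were under 1 FPKM in all 12 libraries. The part that other cell types have in the member differences was not tested.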

How the data were processed

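Whole-liver poly(A) RNA-seq was read from 1 deposited table of 54532 genes, 12 libraries in 4 groups of 3, grouped by title. Per the file headers each library has a column of counts and one of FPKM. The deposited counts are whole numbers without normalization. The authors' FPKM, from the values, are the same counts over gene length, scaled by 1 constant per library. That constant differs from the total counts, and limma on FPKM carries it. CASAVA 1.8, fastp, HISAT2 2.0.5, featureCounts 1.5.0-p3, DESeq2 1.20.0 and the build GRCm38 are named in the submitters' processing notes, without roles; strandedness of the counting is not given in the sources used here.

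Counts were scaled by TMM and tested in 1 edgeR quasi-likelihood model of the 4 groups (R 4.3.3, edgeR 4.0.16), two-sided, over 11451 genes with 1 FPKM or more in at least 3 libraries, with Benjamini-Hochberg adjustment over all of them and calls at 0.05. Bcl2 and Bcl2l11, under that filter, were tested among 14523 genes kept by filterByExpr, a setting planned as an alternative. Depth was 15573405 to 17199639 counts per library, and the biological coefficient of variation, which limits the precision, was 20.6%. The scripts were tested on simulated counts. The members and the gene lists were chosen with earlier results of these data known. Named list genes are up to 4 called genes per list and comparison with the largest differences, or 2 of the most abundant where none was called, and some genes that the rule takes are left out; likeness takes the 3 tested genes with the highest Pearson correlation of log2(FPKM + 1). Alternatives were other filters, scalings (median-ratio, library totals), DESeq2 1.42.0, limma 3.58.1 on log2 FPKM with pseudocounts of 1 and 0.1 or log2(TPM + 1), only the 2 groups compared, a replicate block, each library left out, and sham replicate 1 and 6 h replicate 3 left out together. Applying them to list genes, and to Bcl2 and Bcl2l11 under the second filter, was added after seeing the data. Promoters are from RefSeq (GRCm38.p6), in which all 10 members matched; FPKM-based sums and ratios have no test.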

Additional observations from a re-analysis of the deposited data

Results flagged for a closer look

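For 5 members the difference from sham was not the same at 12 h as at an earlier time, by the edgeR test of the difference between the times. Such differences were common: 12.1% of the 11451 genes rose and 12.6% fell from 6 to 12 h. From 3 to 12 h, 17.8% rose and 18.2% fell. Bcl2l1 was lower at 12 h than at 6 h by a log2 difference of -1.98 and lower than at 3 h by -2.61, every 12 h library lying under every 3 and 6 h library. Bcl2l11, tested only under the count filter, was higher at 12 h than at 6 h by 1.43 and than at 3 h by 1.40. Bid was higher by 1.09 and 1.04. Bok was lower at 12 h than at 3 h by -1.20, and Mcl1 by -0.50, the Mcl1 call being lost when 3 h replicate 3, 12 h replicate 1 or 12 h replicate 3 was left out. No member was checked for a single outlying library, since groups of 3 are too small for that check.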

How the results depend on the processing

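The counts of members called stayed within 1.5 times of those reported in every comparison and alternative except 6 h against 3 h (0 as reported, 1 with no filter, on library totals, and without sham replicate 1 and 6 h replicate 3) and 12 h against 6 h (2 as reported, 4 with no filter). Replicate numbers did not pair the libraries, as the 18 same-number pairs had correlations of deviations from -0.268 to 0.168 and 2 of 12 libraries lay closest to their own number. With the replicate block 4, 4 and 2 members were called against sham at 3, 6 and 12 h, as without it, and 0, 2 and 4 in the later comparisons. These tallies cover 45 member differences, all 30 from sham and the 15 between times that were called as reported or under any alternative. Under settings other than leaving out 1 library, 449 of their values kept direction and call, 22 changed sign, 11 gained and 5 lost a call. With 1 library left out these were 242, 15, 5 and 8. Every change of sign was in a difference that was not called. At 6 h, Mcl1 was 0.0018 under filterByExpr and -0.16 to 0.0469 with a library left out. Bcl2 was -0.0098 with no filter, -0.0095 with median-ratio factors, -0.35 on library totals, -0.0104 in DESeq2, -0.0013 and -0.0123 in limma with pseudocounts of 1 and 0.1, -0.0787 as TPM, -0.0154 with only the 2 groups, -0.15 without the 2 libraries, and -0.24 to 0.0908 with 1 left out. Bak1 was -0.11 on library totals, -0.13 without the 2 libraries and -0.11 to 0.52 with 1 left out, and Bcl2l13 was -0.14 on library totals and -0.16 as TPM. At 12 h, leaving out 1 library gave -0.069 to 0.31 for Bcl2, -0.34 to 0.0902 for Bcl2l11, -0.0757 to 0.19 for Bid, -0.11 to 0.52 for Bak1, -0.27 to 0.18 for Bad, -0.31 to 0.11 for Bcl2l13, -0.0386 to 0.48 for Xiap and -0.0164 to 0.45 for Cflar. Bak1 was -0.11 without the 2 libraries, and Bad was 0.02 under filterByExpr, 0.0045 with median-ratio factors, 0.0050 in DESeq2, 0.0492 and 0.0695 in limma with pseudocounts of 1 and 0.1, 0.0617 as TPM and 0.0084 with only the 2 groups. The cause was not tested. Bcl2 had 13 to 29 counts per library, Bcl2l11 28 to 172 and Bmf 13 to 176.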
